A study of Mus musculus with 15 samples.

Results

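The translation initiation factors were taken as the protein-coding genes whose symbol begins with Eif and a digit from 1 to 6, without the Eif2ak kinases, which act on a factor but are not one. This rule found 51 genes among the 55536 genes of the count table that matched the GENCODE vM21 annotation, of which 22028 are protein-coding. Another 11 genes with such symbols are annotated as pseudogenes or noncoding and were left out, as were 4 Eif2ak kinases. The 51 genes were placed in 12 groups by the complex or step they belong to. Of these, 49 had enough counts to be tested. Eif4e1b, an oocyte cap-binding protein, had 0 counts in every library, and Eif4ebp3 had too few to pass the filter.

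CD8+ T cells of the OT-I line (OT-1 Tg C57BL/6J), which carries a transgenic receptor for an ovalbumin peptide, were sequenced in 15 libraries of 5 per group. The methods state that the donor mice lacked Rag1 or Rag2 and that mice of both sexes were used, and they give a range of ages for the mice of the study as a whole and not the age of each animal. Cells of the Ag and Ag+Costim groups had been transferred into wild-type C57BL/6J recipients, which received the peptide with rat IgG (Ag) or with agonist antibodies against CD134 (OX40) and CD137 (4-1BB) (Ag+Costim). They were sorted as CD8+ CD45.1+ Vα2+ Vβ5+ cells from spleen and lymph nodes, on day 4 by the labels, while the methods give a slightly shorter interval. Naive cells came from OT-I mice without transfer, so that Naive differed from the other groups in host and transfer as well as in antigen. The comparison of Ag with Naive addresses the response to antigen, and that of Ag+Costim with Ag addresses what costimulation adds to it.

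Translation of most messenger RNAs starts when eIF4E binds the cap, the scaffold eIF4G joins it to the RNA helicase eIF4A, and a small ribosomal subunit carrying eIF3, eIF1, eIF1A, eIF5 and the initiator tRNA bound to eIF2 scans to a start codon. eIF2 is recharged with GTP by eIF2B, and kinases that phosphorylate its alpha subunit block that step. The 4E-binding proteins hold eIF4E until mTORC1 phosphorylates them. Such control by phosphorylation acts on the proteins and is not measured by RNA counts. Activated T cells are known to raise protein synthesis as they grow and divide. eIF5A, despite its name, acts mostly in elongation and termination, and eIF6 keeps free large subunits apart from small ones.

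The deposited FPKM columns of Ag 1 and Naive 5 were identical while their counts differed, so counts of calls are also given without both. Total counts ranged from 4865952 to 25280667 per library, and Ag 3 had the lowest, with 16.9% of its sequenced reads counted against 37.4% to 53.6% in the other libraries. CD8 T cell markers were high in all 15 libraries, with summed levels of 4869 to 9773 CPM (counts scaled to a common library total), here of all counts. All 9 B cell markers were detected, with a sum of 205 to 474 CPM in Ag 1, Ag 3 and Ag 4 and of 26.6 to 49.5 in the other 12 libraries, and the erythroid sum was 1238 in Ag 3 against at most 168 elsewhere. Myeloid markers summed to 95.4 to 324 CPM in Naive (highest in Naive 5), 175 to 302 in Ag (highest in Ag 3) and 185 to 278 in Ag+Costim. CD4 T cell markers summed to 3.70 to 36.8 CPM over all 15 libraries. The 6 dividing-cell markers summed to 293 to 2348 CPM in Naive (highest in Naive 5), 601 to 2710 in Ag and 2707 to 3351 in Ag+Costim. The recorded input amount, which has no unit, was 1.4 for Ag 2 and 1.8 for Ag 5, 7 for Naive 2, 9.4 for Ag 3 and 10 for all others. Naive libraries were all in lane 3 and Ag libraries all in lane 2, whereas Ag+Costim was spread over both. In bulk samples such as these, fewer cells of a type and less RNA per cell cannot be told apart.

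Several initiation factor genes are known targets of MYC, which binds the E-box CACGTG together with MAX, so the promoters were searched for this motif. RefSeq promoters (GRCm38.p6, 250 bases before to 50 bases after the start) were held for 39 of the 51 genes, and 10 of these (25.6%) contained CACGTG, which reads the same on both strands. Among all 27025 genes with a promoter entry the share was 8.09%, and among the 10092 of them that were tested for expression it was 11.5%. The windows of members called in Ag+Costim against Naive, and of Eif4g1, a scaffold described below, are shown 5′ to 3′ on the strand of the gene, with the E-box in capitals.
Eif3a (chr19:60790655-60790682, minus strand): cgcgagggaatCACGTGgttccttcctt
Eif4a1 (chr11:69672596-69672623, minus strand): gatcgcctccgCACGTGtaaaggtgctg
Eif4h (chr5:134639489-134639516, minus strand): ggccgccgcacCACGTGggccgcagagc
Eif5a (chr11:69920792-69920819, minus strand): cgctgcgcggcCACGTGaggtgggggag
Eif5a (chr11:69921444-69921471, minus strand): aggggcggggtCACGTGtgtgcgtcatc
Eif4g1 (chr16:20672662-20672689, plus strand): gcagtgggtgtCACGTGatggggcggag
Eif4g1 (chr16:20672731-20672758, plus strand): tctgcgccggtCACGTGgggcgctggct
Eif5a, Eif4g1, Eif4e and Eif5a2 had 2 E-boxes each, those of Eif5a before different annotated starts, and Eif1b, Eif3f and Eif3k had 1 each. A motif match is a description of these letters and not a binding site. Of the 10 genes that hold it, 4 passed the test as higher in Ag+Costim than in Naive, and of the 29 tested genes whose promoter entry lacks it, 17 did.

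The share of all counts that fell on the 51 genes was 0.790, 0.866, 0.937, 0.827 and 1.05% in Naive 1 to 5, 0.772, 1.09, 0.896, 0.791 and 1.14% in Ag 1 to 5 and 1.17, 1.16, 1.13, 1.32 and 1.19% in Ag+Costim 1 to 5. Ag+Costim was above every Naive library, and Ag 5 alone among the Ag libraries overlapped it. Values for single genes below are CPM after TMM scaling of library sizes. The log2 fold changes with their standard error (SE) and false discovery rate (FDR) come from edgeR's quasi-likelihood test with Benjamini-Hochberg adjustment over the 17366 genes tested, with a threshold of 0.05.

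**Figure D1:**
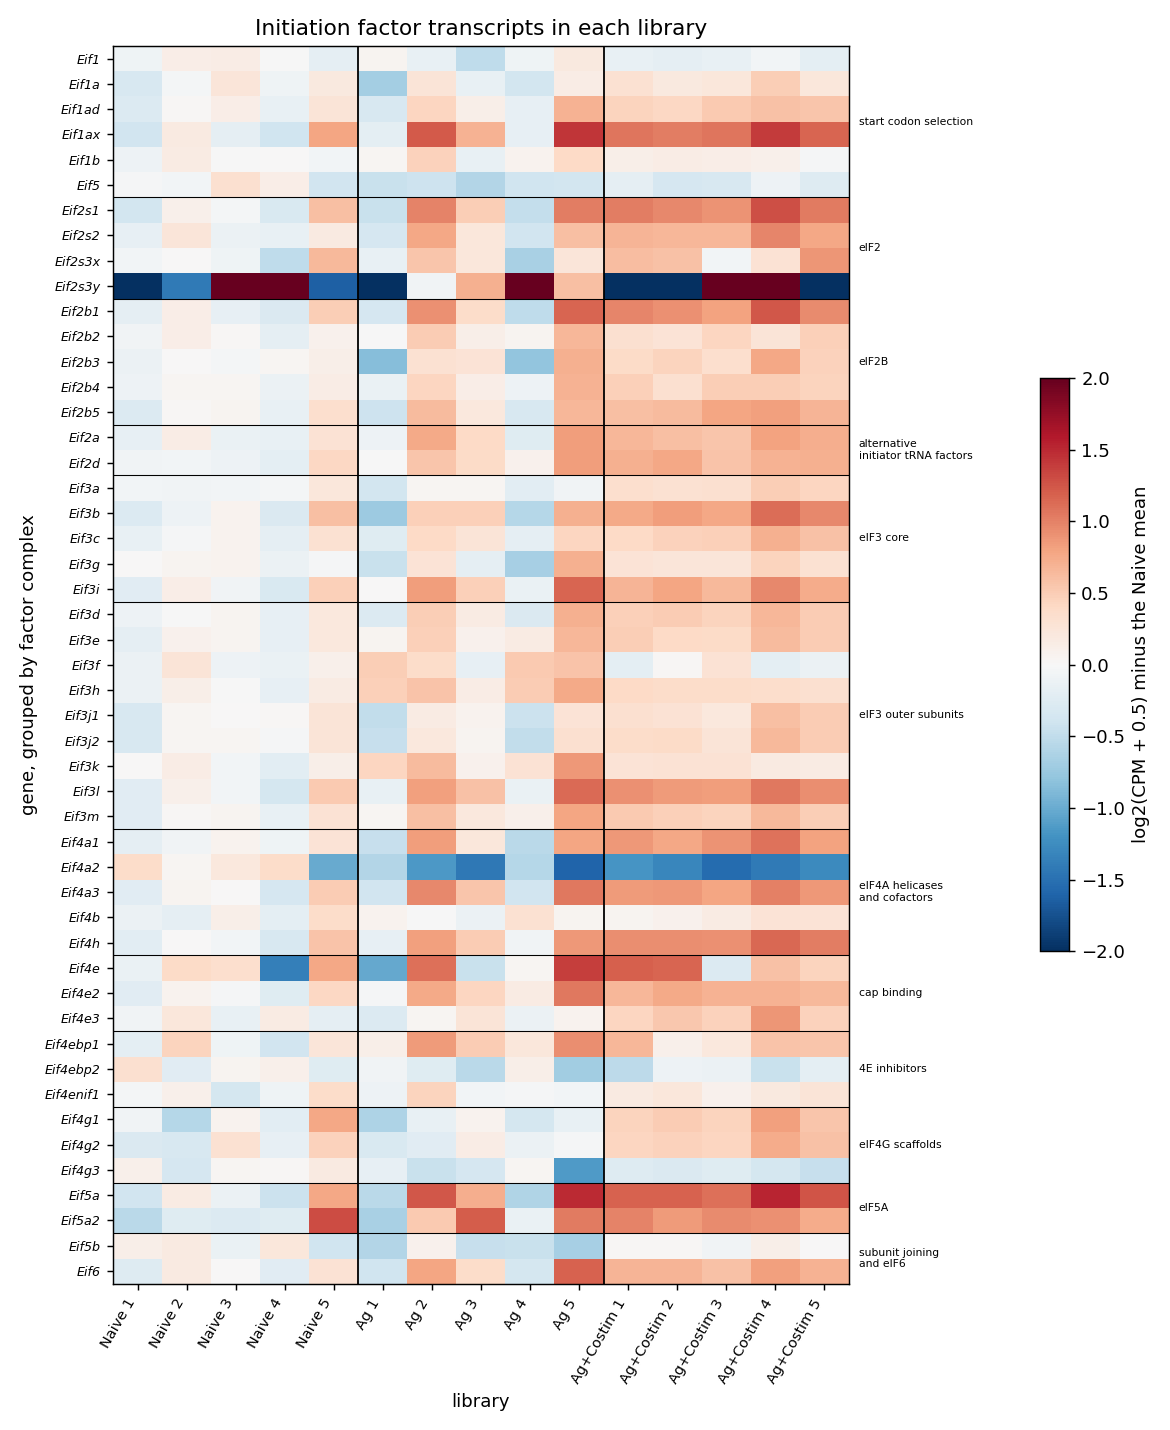
Heat map of log2(CPM + 0.5) minus the Naive mean for the 49 tested genes (rows, by complex) in 15 libraries (columns, 5 per group). Ag 2 and Ag 5 show the colours of the Ag+Costim libraries in most rows, Ag 1 and Ag 4 those of Naive, and the Eif4a2 row is blue where most others are red.

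In Ag+Costim against Naive, 28 of the 49 genes rose and 1 fell, beside 21.0% of all tested genes that rose and 23.6% that fell. The median log2 fold change was 0.50 over the 49 genes and -0.08 over all genes, and 42 of 49 were above 0 beside 46.7% of all genes. CPM ranges did not overlap for 29 genes that were higher and 1 that was lower, beside 22.7% and 22.3% of all genes. Without Naive 1 the count of 29 calls was 13 beside 21.9% of all genes called, and without Naive 4 it was 13 beside 21.6%. It was between 22 and 35 when any other library was left out, beside 27.9% to 51.0%. With lane as a term it was 3 (2 higher, 1 lower) beside 5.43%. Within lane 3 alone, which held Ag+Costim 4 and Ag+Costim 5 of that group, it was 28 beside 34.7%. With Ag 1 and Naive 5 left out it was 36 (35 higher, 1 lower) beside 52.4%. Without Ag 1, Ag 3 and Naive 5 it was 39 beside 60.1%. A fit of only the 10 libraries of the comparison called 31 as higher and 4 as lower (Eif4a2, Eif4ebp2, Eif4g3 and Eif5), beside 64.8%.

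In Ag against Naive, Eif3h and Eif3k rose, Eif4a2 and Eif5 fell, and the other 45 genes did not pass the test. These 4 calls stand beside 6.71% of all genes (3.05% higher, 3.66% lower), and 15 of 49 genes (30.6%) had an unadjusted p under 0.05 beside 28.7% of all genes. The median log2 fold change was 0.22 against 0.08 over all genes, 35 of 49 were above 0 beside 55.8%, and no member had CPM ranges that did not overlap, beside 3.85% of all genes (1.76% higher, 2.09% lower). The median was 0.07 beside 0.08 over all genes without Ag 5, 0.11 beside 0.09 without Ag 2, and 0.49 beside 0.01 without Ag 1, Ag 3 and Naive 5. With Ag 1 and Naive 5 left out, 15 rose and 2 fell beside 31.2% of all genes called. No member was called without Naive 1, without Naive 3 or without Naive 4, beside 1.42%, 1.48% and 1.52% of all genes. Without Naive 5 there were 9 calls beside 21.5%, without Ag 2 there was 1 beside 2.84%, and without Ag 5 there were 2 beside 4.24%. With Ag 1, Ag 3 and Naive 5 left out, 23 rose and 2 fell of 49 genes, and all tested genes called went from 6.71% to 36.9%. With lane as a term edgeR called no gene of the table, and 2 members had an unadjusted p under 0.05, whereas DESeq2 without that term called 6 members (3 higher, 3 lower) beside 16.0% of all genes.

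In Ag+Costim against Ag, edgeR called none of the 49 genes, beside 0.0346% of all genes (0.0288% higher, 0.00576% lower). An unadjusted p under 0.05 was found for 15 of 49 genes (30.6%) beside 26.8% of all genes, and DESeq2 called 8 of 49, of which 7 were higher, beside 14.6% of all genes. The median log2 fold change was 0.30 against -0.10 over all genes, with 40 of 49 above 0 beside 42.1%. It ranged from 0.20 without Ag 1 to 0.51 without Ag 2, and was 0.20 without Ag 1, Ag 3 and Naive 5. CPM ranges did not overlap for 7 genes (Eif3a, Eif3b, Eif4e3, Eif4g1, Eif4g2, Eif4h and Eif5), all higher in Ag+Costim, beside 6.33% of all genes (4.23% higher, 2.10% lower). Leaving out Ag 2 gave 14 calls beside 14.8% of all genes, and leaving out Ag 5 gave 15 beside 19.7%, all of these members higher in Ag+Costim. Leaving out any other library gave none, beside at most 0.656% of all genes. Without Ag 1 and Naive 5 no member was called, beside 0% of all genes. There 14 members had an unadjusted p under 0.05, beside 3551 of 17401 genes. Each pair of these 3 comparisons shares 1 group of libraries, so that they are not independent of each other.

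**Figure D2:**
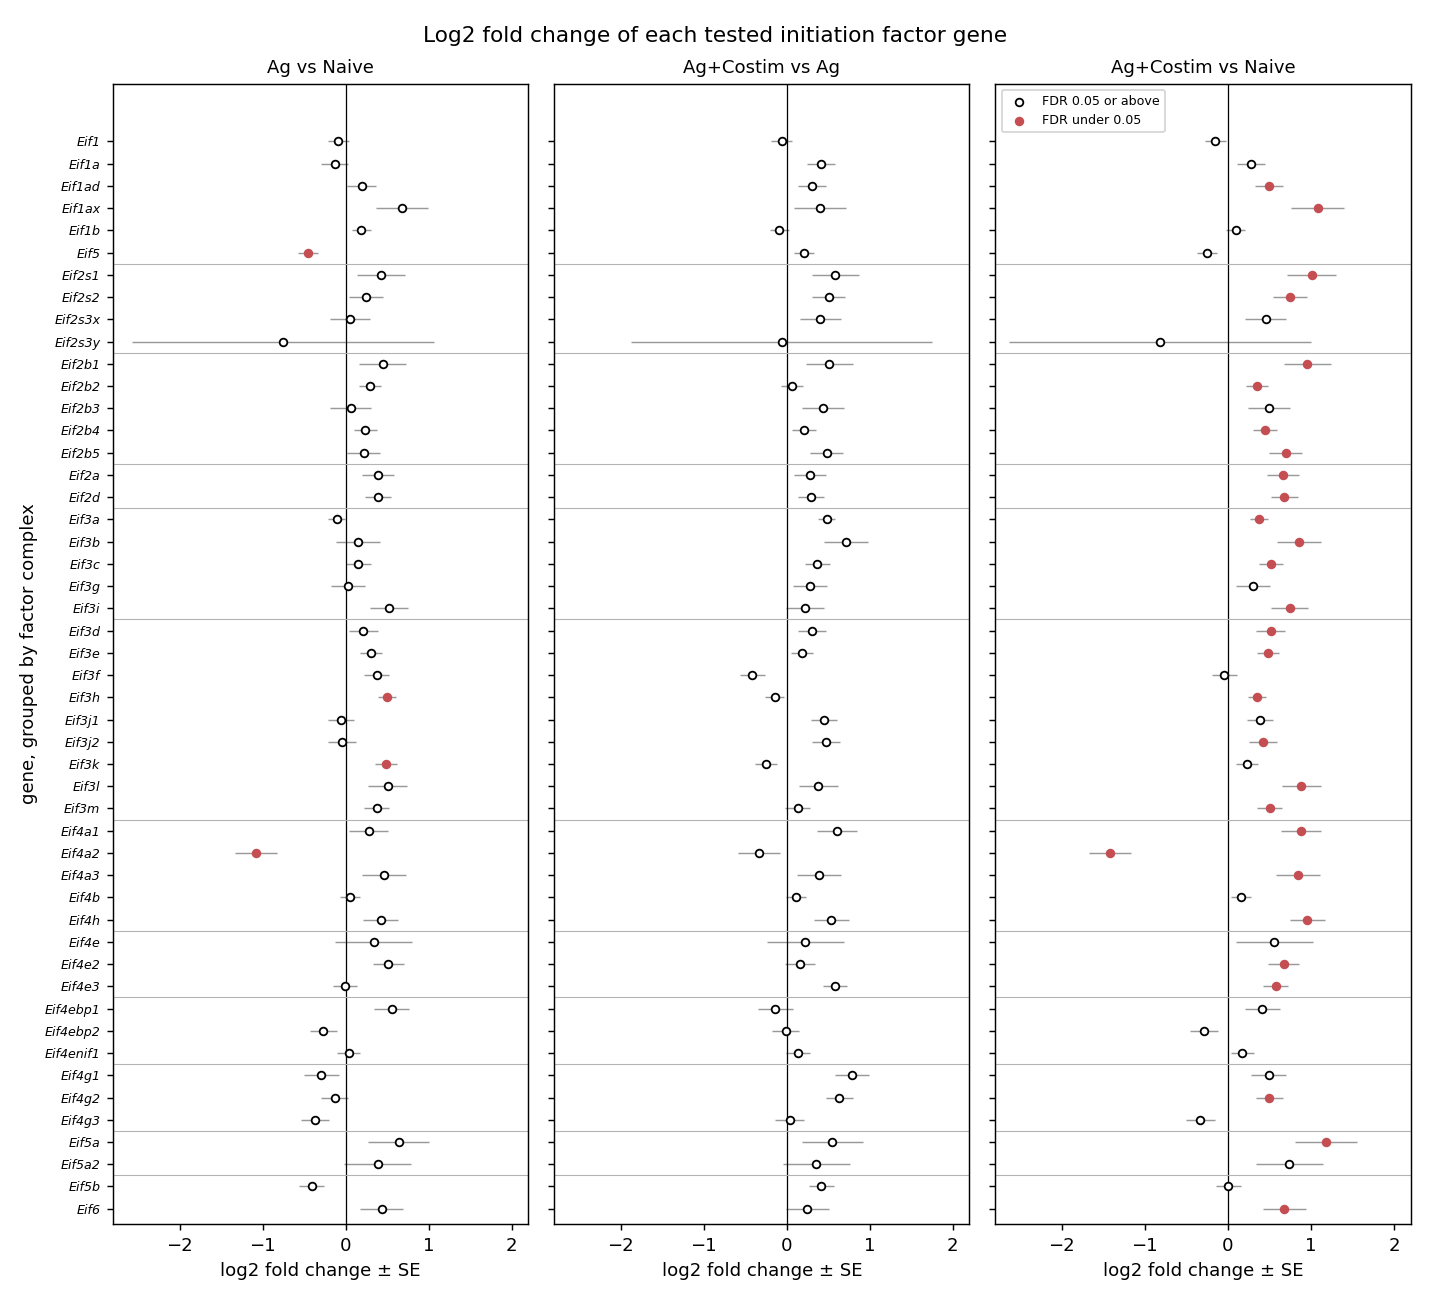
Log2 fold change with SE for the 49 tested genes (rows, by complex) in the 3 comparisons (panels, 5 libraries per group), filled red where the FDR is under 0.05. Filled points are 4 in Ag against Naive, none in Ag+Costim against Ag and 29 in Ag+Costim against Naive, where Eif4a2 is the one to the left of 0.

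Among the 6 genes placed under start codon selection, 2 rose in Ag+Costim against Naive (Eif1ad and Eif1ax) and none fell. A part of Eif1ad in that step was not tested. Eif1ax, the X-linked gene of eIF1A, which keeps the scanning complex open, had 71.2, 106, 82.5, 70.7 and 161 CPM in Naive 1 to 5, 81.4, 219, 152, 82.9 and 253 in Ag 1 to 5 and 197, 190.3, 196, 246 and 211 in Ag+Costim 1 to 5. All Ag+Costim libraries were above all Naive libraries, and Ag 2 and Ag 5 lay within or above the Ag+Costim range while Ag 1 and Ag 4 lay within the Naive range. Eif1ax rose by 1.08 ± 0.32 (SE, FDR 0.0182) on the log2 scale by edgeR, and the FDR was 0.0523 without Naive 1 and 0.0524 without Naive 4. Its autosomal relative Eif1a had a log2 fold change of 0.28 ± 0.17 (SE, FDR 0.170) by edgeR.

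Eif5 (chr12:111538016-111546752, plus strand, GRCm38), which makes eIF2 hydrolyse its GTP at the start codon, had 368, 361, 469, 410.4 and 287 CPM in Naive 1 to 5, 276, 279.9, 250.01, 283 and 291 in Ag 1 to 5 and 329, 298, 299, 349 and 314 in Ag+Costim 1 to 5. The Ag libraries were the lowest of the 3 groups, overlapped the Naive range only through Naive 5 and lay below every Ag+Costim library. Eif5 fell in Ag against Naive, with a log2 fold change of -0.46 ± 0.12 (SE, FDR 0.0363) by edgeR. This call was lost without Naive 1 (FDR 0.0886), Naive 3 (0.108), Naive 4 (0.109), Ag 2 (0.138) or Ag 3 (0.0616). Against Ag, Ag+Costim had a log2 fold change of 0.20 ± 0.12 (SE, FDR 0.284) by edgeR, which did not pass although the ranges were apart. Eif1 and Eif1b, the factors that reject wrong start codons, had log2 fold changes of -0.09 and 0.19 in Ag against Naive and of -0.15 and 0.10 in Ag+Costim against Naive, none of which passed.

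For eIF2, which brings the initiator tRNA, the alpha and beta subunit genes Eif2s1 and Eif2s2 rose in Ag+Costim against Naive and the gamma subunit genes did not pass. Eif2s1, whose protein carries the serine that the Eif2ak kinases phosphorylate, had 148, 204, 186, 155 and 289 CPM in Naive 1 to 5, 139.6, 381, 268, 137 and 389.6 in Ag 1 to 5 and 389.5, 371, 355, 466 and 394 in Ag+Costim 1 to 5. The Ag+Costim libraries were all above the Naive ones, and the Ag group held both Ag 1 and Ag 4 below the lowest Naive library and Ag 2 and Ag 5 within the Ag+Costim range. Group means were 196 ± 56.3, 263 ± 124 and 395 ± 42.6 CPM (SD, n = 5) in Naive, Ag and Ag+Costim. The log2 fold change of Ag+Costim against Naive was 1.01 ± 0.29 (SE, FDR 0.0171) by edgeR, and that of Ag against Naive was 0.42 ± 0.29 (SE, FDR 0.323). Eif2s2 had a log2 fold change of 0.75 ± 0.20 (SE, FDR 0.0143) by edgeR in Ag+Costim against Naive.

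The gamma subunit is encoded on both sex chromosomes. Eif2s3x (chrX:94188707-94212862, minus strand) had 61.2, 64.3, 60.1, 44.9 and 99.8 CPM in Naive 1 to 5, 57.7, 94.3, 74.5, 40.7 and 75.6 in Ag 1 to 5 and 98.3, 96.2, 61.4, 78.4 and 119 in Ag+Costim 1 to 5. The groups overlapped, and its log2 fold change in Ag+Costim against Naive was 0.46 ± 0.25 (SE, FDR 0.133) by edgeR. Eif2s3y (chrY:1010543-1028847, plus strand) had 0, 3.63, 140.3, 159 and 3.06 CPM in Naive 1 to 5, 0, 9.99, 17.6, 136 and 16.3 in Ag 1 to 5 and 0, 0, 89.5, 84.2 and 0 in Ag+Costim 1 to 5. The highest values were in libraries recorded as male (replicates 3 and 4 of each group), and the male library Ag 3 had 17.6 CPM against 84.2 to 159 in the other males. Of the libraries recorded as female, 5 had 0 counts, but Naive 2 and Naive 5 had 46 counts each, Ag 2 had 145 and Ag 5 had 261. The level of this Y-linked gene was thus above 0 in 4 libraries recorded as female and low in 1 recorded as male, and its log2 fold changes, with SE of 1.81 to 1.82, did not pass in any comparison. With recorded sex as a term, 28 members were called in Ag+Costim against Naive in place of 29, beside 45.5% of all genes. In Ag against Naive 4 were called as before, beside 7.15% of all genes.

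**Figure D3:**
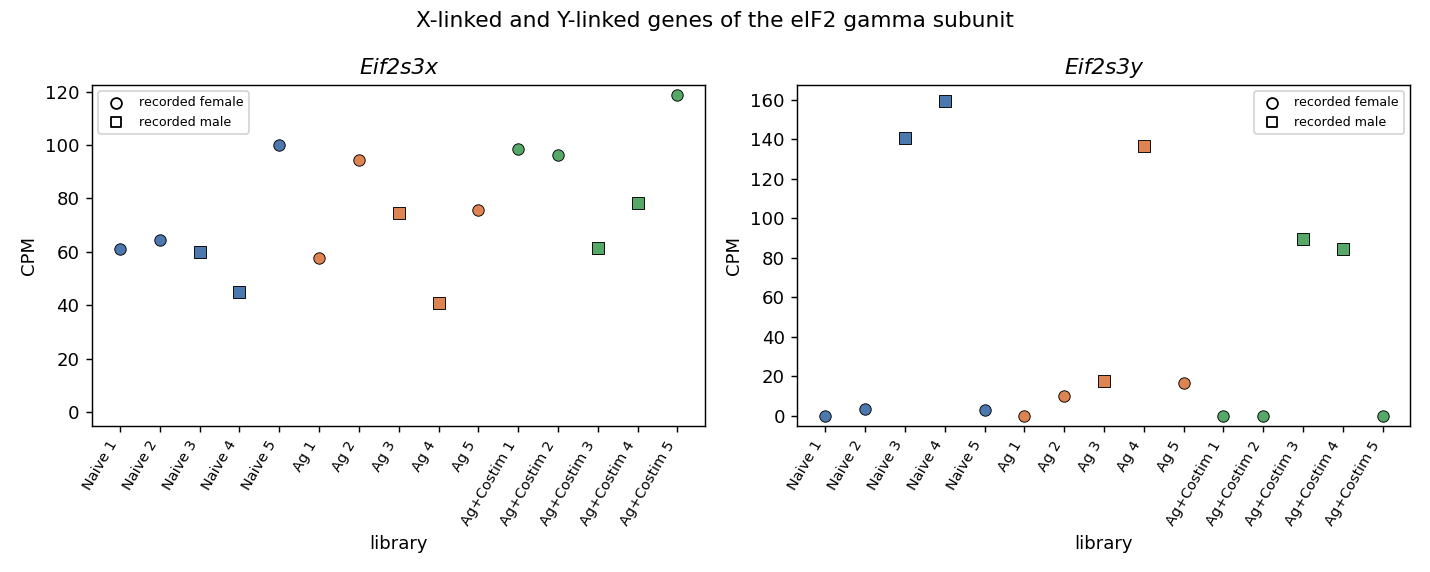
CPM of Eif2s3x (left) and Eif2s3y (right) in the 15 libraries, with circles for recorded females, squares for recorded males and colours for the groups. Eif2s3y reaches 84.2 to 159 CPM in 5 of 6 male libraries, and Ag 3 (male), Ag 2, Ag 5, Naive 2 and Naive 5 (female) lie between 3.06 and 17.6.

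All 5 genes of eIF2B, the exchange factor that reloads eIF2 with GTP, had positive log2 fold changes in the 3 comparisons, and 4 of them rose in Ag+Costim against Naive. Eif2b5, the catalytic epsilon subunit, had 68.8, 85.1, 87.0, 75.5 and 105 CPM in Naive 1 to 5, 62.7, 130.3, 96.7, 66.5 and 133 in Ag 1 to 5 and 127, 129.9, 145, 147 and 134 in Ag+Costim 1 to 5. The Ag+Costim range lay above the Naive range, with Ag 2 and Ag 5 inside it, and the log2 fold change was 0.70 ± 0.20 (SE, FDR 0.0171) by edgeR, with an FDR of 0.0503 without Naive 1. Eif2b1, the regulatory alpha subunit, had 53.6, 67.0, 54.5, 49.95 and 85.5 CPM in Naive 1 to 5, 48.0, 116, 78.8, 42.5 and 137 in Ag 1 to 5 and 119.8, 115, 106, 144 and 117 in Ag+Costim 1 to 5. Again all Ag+Costim libraries were above all Naive ones, and Ag 1 and Ag 4 had the lowest values of the 15. Eif2b1 rose by 0.96 ± 0.28 (SE, FDR 0.0187) on the log2 scale by edgeR, and the FDR was 0.0513 without Naive 1 and 0.0527 without Naive 4.

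Eif2b2, the beta subunit, had 62.5, 72.0, 66.5, 57.8 and 69.9 CPM in Naive 1 to 5, 64.9, 92.9, 71.2, 68.4 and 104 in Ag 1 to 5 and 82.0, 79.2, 88.2, 78.4 and 91.5 in Ag+Costim 1 to 5. The Ag+Costim and Naive ranges were apart by a small gap, and the log2 fold change of 0.35 ± 0.13 (SE, FDR 0.0421) by edgeR was the smallest of the 28 that rose. Its call was lost in 8 of the 10 fits that left out a library of the comparison (FDR up to 0.101, without Naive 4) and held without Naive 5 (0.0375) or Ag+Costim 4 (0.0422). Eif2b3 was the gene of the complex that did not pass, at 0.50 ± 0.25 (SE, FDR 0.111) by edgeR. Both alternative carriers of initiator tRNA, Eif2a and Eif2d, rose in Ag+Costim against Naive, by log2 fold changes of 0.67 ± 0.19 (SE, FDR 0.0171) and 0.68 ± 0.16 (SE, FDR 0.00814) by edgeR.

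eIF3 is the largest initiation factor, and 10 of its 14 genes rose in Ag+Costim against Naive. Eif3a, Eif3b, Eif3c, Eif3g and Eif3i were labelled core here and the other 9 outer. These labels sort the genes and do not describe the position of a subunit in the complex. Of the genes labelled core 4 of 5 rose, with a median of 0.52 on the log2 scale. Of those labelled outer 6 of 9 rose, with a median of 0.43. Eif3a, the core scaffold subunit, had 251, 249, 252, 254 and 305 CPM in Naive 1 to 5, 204, 269.7, 268, 226 and 250.2 in Ag 1 to 5 and 329, 323, 327, 368 and 353 in Ag+Costim 1 to 5. Ag+Costim was above every library of the other groups, with Naive 5 next. The log2 fold change was 0.37 ± 0.10 (SE, FDR 0.0150) by edgeR against Naive, and 0.48 ± 0.10 (SE, FDR 0.0807) against Ag, where the FDR fell to 0.0217 without Ag 2 and to 0.0208 without Ag 5. That FDR was up to 0.170 when another library was left out and 0.355 with lane as a term. Among the genes labelled core, Eif3b had the largest log2 fold changes, 0.86 ± 0.27 (SE, FDR 0.0219) against Naive and 0.71 ± 0.26 (SE, FDR 0.116) against Ag by edgeR. Eif3g did not pass against Naive, at 0.31 ± 0.20 (SE, FDR 0.217).

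The eIF3 genes Eif3h and Eif3k were the members that rose in Ag against Naive. Eif3h (chr15:51786558-51865523, minus strand) had 197, 233, 211, 191 and 239 CPM in Naive 1 to 5, 298, 317, 236, 302 and 359.6 in Ag 1 to 5 and 280.3, 277, 274, 272 and 267 in Ag+Costim 1 to 5. All Ag libraries except Ag 3, the library with the fewest counts and the lowest CD8 marker sum, were above every Naive library. Its log2 fold change was 0.50 ± 0.11 (SE, FDR 0.0202) by edgeR in Ag against Naive and -0.14 ± 0.11 (SE, FDR 0.410) in Ag+Costim against Ag. The call in Ag against Naive was lost without Naive 1 (FDR 0.0725), Naive 3 (0.0626), Naive 4 (0.0744) or Ag 2 (0.104). Eif3h also rose in Ag+Costim against Naive, by 0.35 ± 0.11 (SE, FDR 0.0235) by edgeR, a call lost without Naive 1 (0.0618), Naive 4 (0.0645) or Ag+Costim 1 (0.0507). Of the 50-base stretches of its longest coding transcript, 26.2% also occur in transcripts of other genes.

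Eif3k (chr7:28971372-28981864, minus strand) had 159, 175, 152, 136 and 172 CPM in Naive 1 to 5, 213, 246, 168, 193 and 290.4 in Ag 1 to 5 and 191, 193, 193, 179.7 and 177 in Ag+Costim 1 to 5. The Ag libraries other than Ag 3 were above all Naive libraries, and Ag 1, Ag 2 and Ag 5 were also above all Ag+Costim libraries. Its log2 fold change was 0.48 ± 0.13 (SE, FDR 0.0444) by edgeR in Ag against Naive, and the call was lost without Naive 1 (FDR 0.112), Naive 2 (0.0571), Naive 3 (0.114), Naive 4 (0.138), Ag 2 (0.160) or Ag 5 (0.0922). The Ag+Costim value against Naive was 0.23 ± 0.13 (SE, FDR 0.156), which did not pass although the ranges were apart. Eif3f, another eIF3 gene, had log2 fold changes of 0.37 ± 0.15 (SE, FDR 0.119) in Ag against Naive and -0.41 ± 0.15 (SE, FDR 0.106) in Ag+Costim against Ag by edgeR. DESeq2 called Eif3f lower in Ag+Costim than in Ag.

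Eif3j2 is a near copy of Eif3j1, the loosely bound subunit: 91.9% of its 50-base stretches occur in other genes, and its CPM was 63.5 to 70.6% of that of Eif3j1 in every library, so the split of reads between them is uncertain. Eif3j2 had 36.4, 47.0, 46.9, 44.8 and 54.8 CPM in Naive 1 to 5, 33.1, 53.0, 47.5, 32.4 and 57.3 in Ag 1 to 5 and 58.6, 59.4, 54.5, 71.8 and 64.8 in Ag+Costim 1 to 5. The ranges of Ag+Costim and Naive overlapped by 1 library on each side. Eif3j2 rose by 0.43 ± 0.17 (SE, FDR 0.0491) on the log2 scale by edgeR, and the call was lost in 9 of 10 fits that left out a library (FDR up to 0.118, without Naive 1), holding only without Naive 5 (0.0276). Eif3j1 had 0.39 ± 0.16 (SE, FDR 0.0591) by edgeR. Eif3d, Eif3e, Eif3l and Eif3m also rose in Ag+Costim against Naive, by 0.48 (Eif3e) to 0.89 (Eif3l) on the log2 scale, with an FDR of 0.0129 for Eif3l by edgeR.

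The eIF4A genes moved in opposite directions. Eif4a1 and Eif4a2 encode near-identical helicases that unwind RNA ahead of the small subunit. Eif4a1 had 286, 311, 343, 305 and 393 CPM in Naive 1 to 5, 238, 584, 381, 224 and 560.1 in Ag 1 to 5 and 596, 557, 607, 689 and 572 in Ag+Costim 1 to 5. Ag+Costim was above every Naive library, and Ag 2 and Ag 5 lay in its range while Ag 1 and Ag 4 were the lowest of all 15. Eif4a1 rose in Ag+Costim against Naive by 0.88 ± 0.24 (SE, FDR 0.0138) on the log2 scale by edgeR. Of its 50-base stretches 65.3% occur elsewhere, mostly in the pseudogene Eif4a-ps4, whose CPM was 44.7 to 50.4% of that of Eif4a1 in every library.

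Eif4a2 (chr16:23107444-23114136, plus strand) had 290.2, 231, 260.1, 289 and 111 CPM in Naive 1 to 5, 149, 100.5, 83.2, 151 and 73.2 in Ag 1 to 5 and 98.5, 90.7, 76.4, 83.9 and 92.2 in Ag+Costim 1 to 5. The Ag+Costim libraries were all below the Naive ones, of which Naive 5 was the lowest, and Ag 1 and Ag 4 were the highest of the Ag group. The Naive, Ag and Ag+Costim means were 236 ± 74.1, 111 ± 36.6 and 88.3 ± 8.45 CPM (SD, n = 5). Eif4a2 fell in Ag against Naive, with a log2 fold change of -1.08 ± 0.25 (SE, FDR 0.0246), and in Ag+Costim against Naive, with -1.42 ± 0.26 (SE, FDR 0.00321) by edgeR. The second call held in every fit that left out a library (FDR up to 0.0187) and with lane as a term (0.0492), and the first was lost without Naive 1 (0.0751), Naive 3 (0.0682), Naive 4 (0.0753), Ag 2 (0.0815) or Ag 5 (0.0501). Between Ag+Costim and Ag it was -0.34 ± 0.25 (SE, FDR 0.399) by edgeR. Exons of Eif4a2 overlap those of Rfc4 and of small nucleolar RNAs such as Snora81 and Snord2, and the reads carry no strand.

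Levels of different genes were compared as TPM, transcript counts divided by transcript length and scaled to a common total. Eif4a2 made up 44.0, 37.7, 38.9, 43.4 and 19.9% of the summed TPM of Eif4a1 and Eif4a2 in Naive 1 to 5, 35.1, 13.1, 16.5, 37.3 and 10.5% in Ag 1 to 5 and 12.7, 13.0, 10.2, 9.75 and 12.3% in Ag+Costim 1 to 5. The Ag+Costim share was below every Naive library, and the Ag group spanned from the Ag+Costim to the Naive values. Counts given to the pseudogene Eif4a-ps4, at 44.7 to 50.4% of the CPM of Eif4a1, are not in these sums. The shares of Eif4a2 would be lower if those reads came from Eif4a1. Group means of the TPM were 178, 82.0 and 65.3 for Eif4a2 and 299.6, 308 and 502 for Eif4a1 in Naive, Ag and Ag+Costim.

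**Figure D4:**
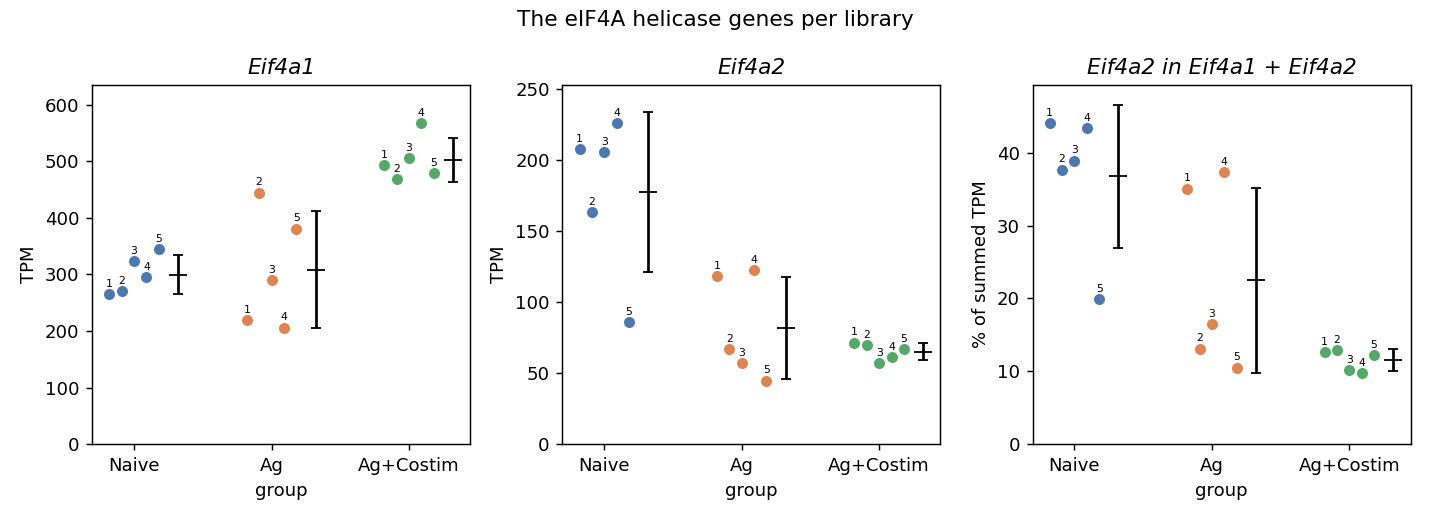
TPM of Eif4a1 (left) and Eif4a2 (middle) and the percent of their summed TPM that is Eif4a2 (right), as 1 numbered point per library with the group mean and SD beside it (n = 5). The share of Eif4a2 is 19.9 to 44.0% in Naive, 10.5 to 37.3% in Ag and 9.75 to 13.0% in Ag+Costim. Counts given to the pseudogene Eif4a-ps4 are not included.

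Of the helicase cofactors, Eif4h rose in Ag+Costim against Naive and Eif4b, which also stimulates eIF4A, had a log2 fold change of 0.16 ± 0.12 (SE, FDR 0.285) by edgeR. Eif4h had 262, 305, 292, 241 and 447 CPM in Naive 1 to 5, 268, 533, 430.3, 287 and 553 in Ag 1 to 5 and 578, 576, 568, 669.6 and 616 in Ag+Costim 1 to 5. Ag+Costim was above all other libraries, with Ag 5 and Ag 2 next. Eif4h rose by 0.96 ± 0.22 (SE, FDR 0.00713) on the log2 scale by edgeR, and the call held in all 10 fits that left out a library of the comparison (FDR up to 0.0247) and with lane as a term (0.0492). Eif4a3, a helicase of the exon junction complex that shares the family name, rose by 0.85 ± 0.27 (SE, FDR 0.0228) by edgeR.

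Eif4e, the cap-binding protein, had 77.9, 111, 108, 32.8 and 146 CPM in Naive 1 to 5, 41.5, 183, 62.5, 87.6 and 224 in Ag 1 to 5 and 196, 191, 70.6, 127 and 116 in Ag+Costim 1 to 5. Values varied widely within each group, from 32.8 CPM in Naive 4 to 146 in Naive 5 and from 70.6 in Ag+Costim 3 to 196 in Ag+Costim 1, and the groups overlapped. The log2 fold change in Ag+Costim against Naive was 0.56 ± 0.47 (SE, FDR 0.321) by edgeR. The share of its counts given to transcript Eif4e-201 was 0.989, 0.993, 0.870, 0 and 0.618 in Naive 1 to 5, 0, 0.944, 0, 0.888 and 0.606 in Ag 1 to 5 and 0.953, 0.594, 0, 0 and 0 in Ag+Costim 1 to 5. The 6 libraries in which Eif4e-201 was listed at 0 included the lowest Eif4e CPM of each group (Naive 4, Ag 1 and Ag+Costim 3). Most of their counts were given to Eif4e-204 and Eif4e-205. By TPM the lowest libraries were Naive 1 (29.7), Ag 4 (49.4) and Ag+Costim 3 (76.0), and only the last had Eif4e-201 at 0. Naive 4 had 39.9 TPM and Ag 1 had 69.5. The highest TPM were in Ag+Costim 4 (181) and Ag+Costim 5 (180), where Eif4e-201 was also at 0. Mean TPM was 59.4, 79.8 and 131 in Naive, Ag and Ag+Costim. Mean shares in Naive, Ag and Ag+Costim were 0.212, 0.296 and 0.475 for Eif4e-204 and 0.0256, 0.152 and 0.209 for Eif4e-205.

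Of its relatives, Eif4e2, which binds caps without recruiting eIF4G, rose in Ag+Costim against Naive by a log2 fold change of 0.67 ± 0.19 (SE, FDR 0.0146) by edgeR. Eif4e3, a low-level cap-binding relative, had 10.7, 13.2, 10.1, 12.7 and 9.84 CPM in Naive 1 to 5, 9.21, 11.6, 13.5, 10.3 and 11.8 in Ag 1 to 5 and 15.3, 16.5, 15.7, 21.2 and 15.6 in Ag+Costim 1 to 5. All Ag+Costim libraries were above all others, with Ag+Costim 4 the highest. The log2 fold change was 0.58 ± 0.15 (SE, FDR 0.0110) by edgeR against Naive, called also with lane as a term (0.0493), and 0.58 ± 0.15 (SE, FDR 0.0807) against Ag, with an FDR of 0.0275 without Ag 2 and 0.0248 without Ag 5. With another library left out the FDR against Ag was up to 0.170, and with lane as a term it was 0.355.

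None of the inhibitors of eIF4E passed the test in any of the 3 comparisons by edgeR or by DESeq2 with all 15 libraries, and 1 of the 3 tested had an unadjusted p under 0.05 by edgeR (Eif4ebp1 in Ag against Naive). With Ag 1 and Naive 5 left out, edgeR called Eif4ebp1 higher in Ag than in Naive, and Eif4ebp1 and Eif4enif1 higher in Ag+Costim than in Naive. In a fit of only the 10 libraries of Ag+Costim and Naive, edgeR called Eif4ebp2 lower in Ag+Costim. Eif4ebp1, a repressor that mTORC1 inactivates, had 10.1, 15.9, 10.9, 8.75 and 13.8 CPM in Naive 1 to 5, 12.7, 21.4, 16.8, 13.7 and 22.7 in Ag 1 to 5 and 18.7, 12.4, 13.5, 17.5 and 17.2 in Ag+Costim 1 to 5. The groups overlapped, with Ag 5 and Ag 2 the highest, and the log2 fold changes were 0.56 ± 0.21 (SE, FDR 0.107) in Ag against Naive and 0.42 ± 0.21 (SE, FDR 0.108) in Ag+Costim against Naive by edgeR. Eif4ebp2, its relative, had 86.1, 58.9, 72.0, 74.3 and 58.3 CPM in Naive 1 to 5, 66.0, 58.7, 47.5, 74.9 and 42.4 in Ag 1 to 5 and 47.8, 64.3, 63.8, 50.8 and 60.3 in Ag+Costim 1 to 5. Naive 1 was the highest and Ag 5 the lowest, again with overlap, and the log2 fold change in Ag+Costim against Naive was -0.29 ± 0.16 (SE, FDR 0.158) by edgeR. Eif4enif1, which carries eIF4E to the nucleus and to processing bodies, had 0.17 on the log2 scale.

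The scaffold genes Eif4g1 and Eif4g2 stood apart between Ag+Costim and Ag, with log2 fold changes among the largest of that comparison, though neither passed the threshold in edgeR. Eif4g1, which links eIF4E, eIF4A and eIF3, had 174, 123, 192, 158 and 313 CPM in Naive 1 to 5, 119, 165, 192, 143 and 164 in Ag 1 to 5 and 249, 259, 249, 324 and 269 in Ag+Costim 1 to 5. Ag+Costim was above every Ag library, and Naive 5 alone among the Naive libraries lay in its range. Its log2 fold change was 0.79 ± 0.21 (SE, FDR 0.0807) by edgeR in Ag+Costim against Ag, with an FDR of 0.0311 without Ag 2, 0.0323 without Ag 5 and 0.00498 in DESeq2. Its FDR by edgeR was up to 0.170 without another library and 0.355 with lane as a term. Against Naive it was 0.49 ± 0.21 (SE, FDR 0.0658) by edgeR.

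Eif4g2, which encodes a scaffold that lacks the eIF4E site and serves cap-independent initiation, had 969, 948, 1460.2, 1061 and 1639 CPM in Naive 1 to 5, 954, 1014, 1312, 1089.5 and 1168 in Ag 1 to 5 and 1603, 1637, 1592, 1985 and 1777 in Ag+Costim 1 to 5. The Ag+Costim libraries were above every Ag library, and Naive 5 overlapped their range. Its log2 fold change was 0.63 ± 0.16 (SE, FDR 0.0807) by edgeR in Ag+Costim against Ag, with an FDR of 0.0316 without Ag 2, 0.0273 without Ag 5 and 0.00311 in DESeq2. By edgeR it was up to 0.170 without another library and 0.355 with lane as a term. Against Naive it rose by 0.50 ± 0.16 (SE, FDR 0.0251) by edgeR, a call that was lost without Naive 1 (0.0695), Naive 2 (0.0615), Naive 4 (0.0669) or Ag+Costim 5 (0.0534). Eif4g3, the paralogue of Eif4g1, had 103, 76.7, 99.2, 98.4 and 109 CPM in Naive 1 to 5, 86.7, 70.6, 76.4, 99.7 and 43.8 in Ag 1 to 5 and 81.0, 79.0, 81.3, 75.3 and 70.3 in Ag+Costim 1 to 5. Ag 5 was the lowest and the groups overlapped, with log2 fold changes of -0.37 ± 0.17 (SE, FDR 0.174) in Ag against Naive and -0.33 ± 0.17 (SE, FDR 0.121) in Ag+Costim against Naive by edgeR. A fit of only the 10 libraries of Ag+Costim and Naive called Eif4g3 lower in Ag+Costim.

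Eif5a (chr11:69916714-69921958, minus strand) was the most abundant initiation factor transcript per length in all 3 groups, with mean TPM of 984, 1276 and 2044 in Naive, Ag and Ag+Costim, and had the largest positive log2 fold change of the 49 genes in Ag+Costim against Naive. It had 601, 883, 722, 581 and 1334 CPM in Naive 1 to 5, 537, 1853, 1296, 514 and 2207 in Ag 1 to 5 and 1771, 1787, 1689.7, 2259.5 and 1876 in Ag+Costim 1 to 5. All Ag+Costim libraries were above Naive, of which Naive 5 was the highest, and the Ag group ran from Ag 4 and Ag 1, below every Naive library, to Ag 2 and Ag 5, within the Ag+Costim range. Group means were 824 ± 309, 1282 ± 763 and 1877 ± 224 CPM (SD, n = 5). The log2 fold change was 1.19 ± 0.37 (SE, FDR 0.0233) in Ag+Costim against Naive and 0.64 ± 0.37 (SE, FDR 0.255) in Ag against Naive by edgeR, and the first call was lost without Naive 1 (FDR 0.0625), Naive 3 (0.0529) or Naive 4 (0.0625). Its relative Eif5a2 made up at most 0.378% of their summed TPM in any library and had 0.74 ± 0.40 (SE, FDR 0.133) by edgeR.

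**Figure D5:**
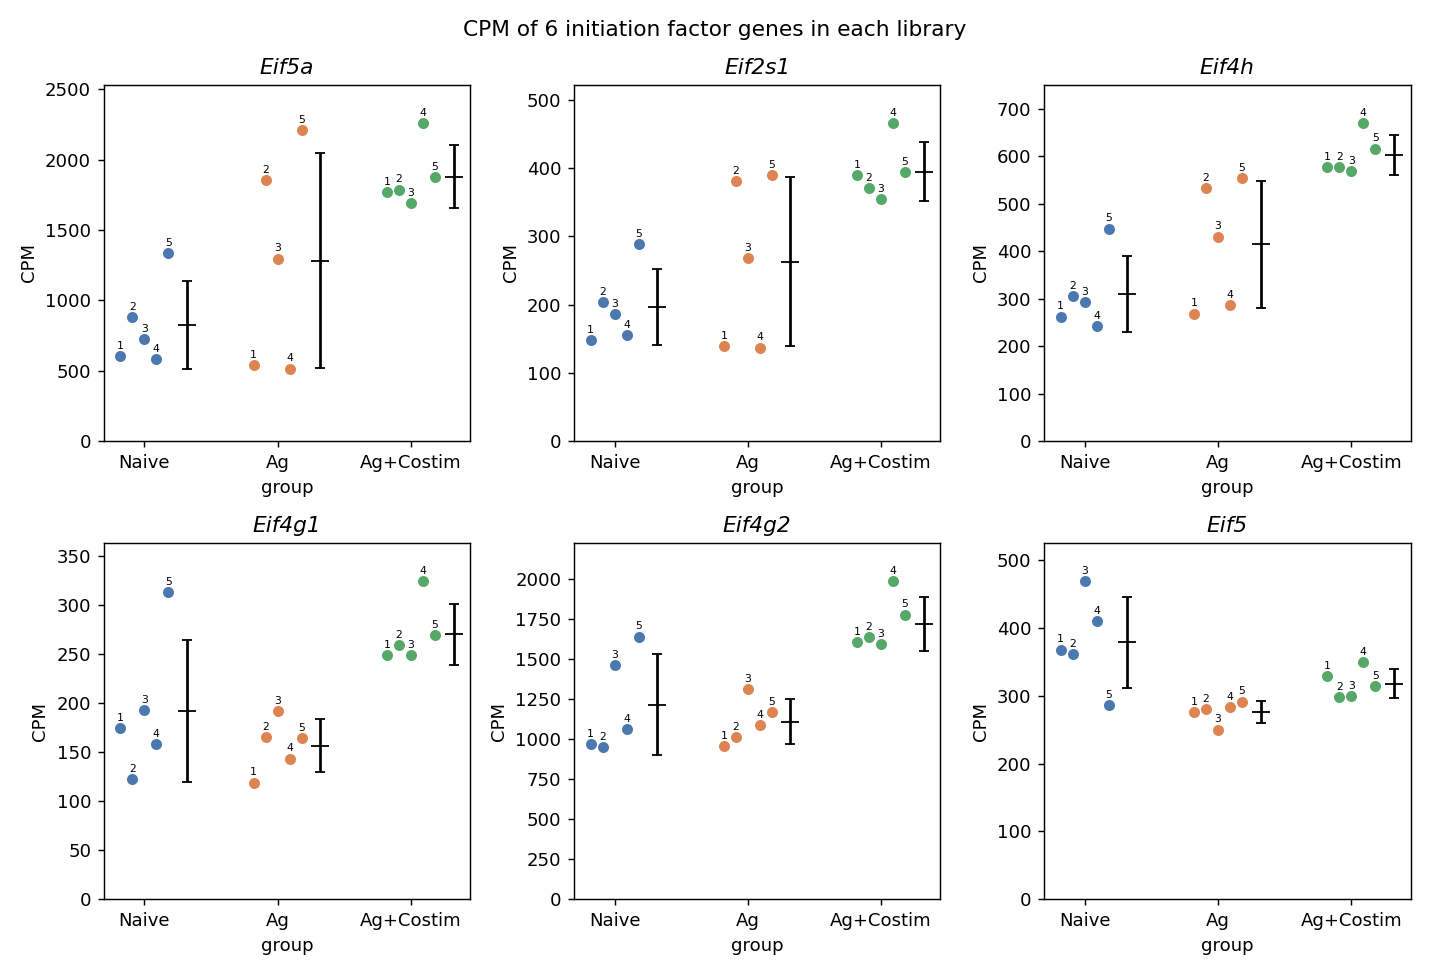
CPM of Eif5a, Eif2s1, Eif4h, Eif4g1, Eif4g2 and Eif5 in each library, as 1 numbered point per library with the group mean and SD beside it (n = 5 per group). In the panels of Eif5a and Eif2s1 the Ag points split between the Naive and the Ag+Costim ranges, whereas for Eif4g1 and Eif4g2 all 5 Ag points lie below all Ag+Costim points.

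Eif6, which keeps free large ribosomal subunits from joining small ones, had 119.8, 163, 144, 123 and 176 CPM in Naive 1 to 5, 108, 249, 185, 112 and 324 in Ag 1 to 5 and 229.5, 231, 215, 255 and 233 in Ag+Costim 1 to 5. Ag+Costim was above every Naive library, and Ag 5 and Ag 1 were the highest and the lowest of all 15. Its log2 fold change of 0.68 ± 0.26 (SE, FDR 0.0437) by edgeR lost its call in 9 of 10 fits that left out a library of the comparison (FDR up to 0.0994, without Naive 1) and held without Naive 5 (0.0333). Eif5b, the GTPase that joins the subunits, had log2 fold changes of -0.41 ± 0.15 (SE, FDR 0.1003) in Ag against Naive and 0.41 ± 0.15 (SE, FDR 0.110) in Ag+Costim against Ag by edgeR, and DESeq2 called it lower in Ag than in Naive.

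After Eif5a, the genes with the highest mean TPM in Naive were Eif1 (413), Eif3k (323), Eif4a1 (299.6), Eif4g2 (277) and Eif3h (269). In Ag+Costim they were Eif4a1 (502), Eif3i (361), Eif4h (354), Eif3k (352) and Eif4g2 (343), and Eif4a2 went from rank 14 in Naive to rank 23 in Ag and rank 33 in Ag+Costim among the 51. Neighbours in this order often differed by less than the SD of their levels, for instance 323 ± 26.4 TPM for Eif3k and 299.6 ± 34.4 for Eif4a1 in Naive (SD, n = 5).

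The study also compared transcript isoforms. Of 7501 genes with at least 2 tested transcripts, 35 were members, and none was called for a changed transcript share by edgeR's diffSpliceDGE in Ag against Naive, beside 0.547% of all genes, or in Ag+Costim against Ag, beside 0.933%. An unadjusted p under 0.05 was found for 2 and 1 of the 35, limma's diffSplice called none (7 and 2 with an unadjusted p under 0.05), and without a filter on low counts Eif4enif1 was called in both. Eif5 had a gene-level FDR of 0.00837 by diffSpliceDGE in Ag against Naive, from Eif5-214, whose mean share was 0 in Naive and 0.0203 in Ag, short of the change of 0.1 that a call required.

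Transcript Eif4a2-202, which is protein-coding, held shares of 0.748, 0.645, 0.688, 0.719 and 0.577 in Naive 1 to 5, 0.624, 0.418, 0.571, 0.641 and 0.308 in Ag 1 to 5 and 0.419, 0.458, 0.319, 0.346 and 0.433 in Ag+Costim 1 to 5. Its Ag+Costim range lay below its Naive range, but neither tested comparison passed (FDR 1 for the gene in both by diffSpliceDGE). Eif4a2-204, annotated as a target of nonsense-mediated decay, had mean shares of 0.0719 ± 0.0302, 0.161 ± 0.0992 and 0.162 ± 0.0633 in Naive, Ag and Ag+Costim, and Eif4a2-223 had 0.0872 ± 0.0807, 0.0930 ± 0.0842 and 0.247 ± 0.108 (SD, n = 5). All protein-coding transcripts of Eif4a2 together held 78.9 ± 3.46%, 65.0 ± 6.50% and 67.4 ± 7.40% of its counts in Naive, Ag and Ag+Costim, and every Naive library was above every other library. For Eif4a1 the coding share ran from 63.7% (Naive 4) to 98.8% (Ag+Costim 4), with group means of 81.9, 92.7 and 96.4%. For Eif4g1 it ran from 56.6% (Ag 3) to 96.2% (Ag+Costim 4). The gene levels given above thus include noncoding transcripts to differing degrees. For Eif4g2, Eif4g2-213 held 0.930 ± 0.0913, 0.971 ± 0.0274 and 0.944 ± 0.0379.

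Genes that control these factors were counted beside them, from lists chosen for their function. Of 12 genes of mTORC1, S6 kinase and MNK control, 4 fell and none rose in Ag+Costim against Naive, with a median log2 fold change of -0.22. Over all genes 23.6% fell and 21.0% rose, with a median of -0.08. Pdcd4, an inhibitor that binds eIF4A, fell by 1.97 on the log2 scale (SE 0.36, FDR 0.00324 by edgeR), from a mean of 294 CPM in Naive to 75.0 in Ag+Costim. Tsc1, a brake on mTORC1, fell by 1.20 (FDR 0.0106 by edgeR). The other 2 were Rptor, itself a part of mTORC1, with -0.86 ± 0.32 (SE, FDR 0.0442), and Mknk1, an MNK kinase, with -0.36 ± 0.13 (SE, FDR 0.0393) by edgeR. Both brakes and activating genes of the list thus fell. In Ag against Naive none of the 12 passed by edgeR, 3 had an unadjusted p under 0.05 (beside 28.7% of all genes) and DESeq2 called 3 as lower (beside 16.0% called), and Pdcd4 had -1.17 ± 0.35 (SE, FDR 0.0568).

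Of 10 tested genes of the eIF2 kinase and stress list, 2 rose and 1 fell in Ag+Costim against Naive, with a median of 0.02. Over all genes 21.0% rose and 23.6% fell, with a median of -0.08. In Ag against Naive 0 rose and 2 fell, beside 3.05% and 3.66% of all genes. Eif2ak1 and Eif2ak2, the kinases that sense heme and double-stranded RNA, rose in Ag+Costim against Naive. Their log2 fold changes were 0.42 ± 0.12 (SE, FDR 0.0168) and 0.57 ± 0.14 (SE, FDR 0.00863) by edgeR. In the same list Ppp1r15a, the inducible subunit of the phosphatase for eIF2 alpha, fell in both comparisons with Naive, with -1.34 ± 0.27 (SE, FDR 0.0152) for Ag and -1.45 ± 0.27 (SE, FDR 0.00369) for Ag+Costim. Gcn1l1, which activates the kinase Gcn2, fell in Ag against Naive, with -0.71 ± 0.19 (SE, FDR 0.0409) by edgeR. Gcn1l1 was named after its values were seen, as were Gigyf2 and the Ag values of Eef2k below.

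Of 15 partner genes outside the Eif names, 4 rose and 1 fell in Ag+Costim against Naive, with a median of 0.26, beside 21.0% of all genes that rose, 23.6% that fell and a median of -0.08. The lowest FDR values were those of Mcts1 and Denr, which together deliver initiator tRNA, at 0.47 ± 0.16 (SE, FDR 0.0269) and 0.56 ± 0.19 (SE, FDR 0.0301) by edgeR, of Bzw1, an eIF5 mimic, at 0.61 ± 0.21 (SE, FDR 0.0306), and of Pabpc4, a poly(A)-binding protein, at 0.39 ± 0.14 (SE, FDR 0.0398). Gigyf2, which represses translation with Eif4e2, was the gene that fell, with -0.64 ± 0.24 (SE, FDR 0.0426) by edgeR. Of 8 elongation factor genes, Eef1d rose in Ag+Costim against Naive, with 0.78 ± 0.28 (SE, FDR 0.0366) by edgeR, and the list's median was 0.07. Eef2k, the kinase that inhibits eEF2, fell there, with -1.91 ± 0.25 (SE, FDR 0.00100). In Ag against Naive Eef2k was the one gene of the list that passed, with -1.09 ± 0.24 (SE, FDR 0.0199) by edgeR. In Ag+Costim against Ag, edgeR called no gene of these 4 lists. An unadjusted p under 0.05 was found for 3 genes of the mTORC1 list, 3 of the stress list, 6 of the partners and 2 of the elongation factors, and DESeq2 called 2, 1, 3 and 1 genes of these lists. Of all genes 26.8% had such a p and DESeq2 called 14.6%.

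Dividing-cell markers, which are given above for each group, were lowest in Naive 1 to 4, Ag 1 and Ag 4 and highest in Ag+Costim, Ag 2 and Ag 5. The share of all counts on the 51 genes was also highest in Ag+Costim, Ag 2 and Ag 5. Not every member followed that order. Eif3h had 298 and 302 CPM in Ag 1 and Ag 4, above every Ag+Costim library. Eif4g1 had 165 and 164 CPM in Ag 2 and Ag 5, below every Ag+Costim library, and Eif4a2 ran the opposite way. The part of the dividing-cell markers in the differences was not tested. Nor was that of the myeloid markers, of the B cell markers of Ag 1, Ag 3 and Ag 4 or of the input amounts of Ag 2 and Ag 5.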

How the data were processed

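RNA from 15 sorted CD8+ T cell samples was amplified with SMART-Seq v4, made into Nextera XT libraries, which do not mark strand, and sequenced. Per the submitters' processing notes, the authors used HISAT2 2.1.0 on mm10, SAMtools 1.9, StringTie 2.1.0, R 4.0.5 and DESeq2 1.30.1. The deposited tables hold StringTie's estimated counts per gene and per transcript as whole numbers, and FPKM values, which were used only to look for identical columns. A deposited sequencing sheet gives the count of reads sequenced, the lane and the input amount of each library. Identifiers matched GENCODE vM21 (GRCm38) for 55536 of 81881 gene entries. Another 26248 entries named only by a number (0.0818% of counts) and 97 other entries (0 counts) were left out.

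The 5 samples per group are biological replicates by the study's methods. Genes were filtered with edgeR's filterByExpr, scaled by TMM and tested with edgeR 4.0.16 (R 4.3.3), a quasi-likelihood fit to all 15 libraries with group as the term, with Benjamini-Hochberg adjustment over 17366 genes and an FDR threshold of 0.05. Each log2 fold change carries an SE taken from its F value. TPM came from transcript counts and lengths. Transcript shares were tested with diffSpliceDGE, with a share change of at least 0.1 required for a call. Total counts of 4865952 to 25280667 set the precision, which covers counting and replicate spread only. On simulated counts for the 17366 genes, 27% of genes changed by 1 on the log2 scale and 71% of those changed by 2 were recovered for Ag+Costim against Naive. Only 100 genes of each size were changed there, which gave 103 calls beside 7755 in the data. The FDR cut thus fell at a different p, so these rates do not give the sensitivity of the real comparison.

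DESeq2 1.42.0, limma 3.58.1, other scalings, no filter, lane, recorded sex, a replicate block and left-out libraries were the alternatives, and library totals taken over all genes before TMM were added after seeing the data. Members given with every library are those called in Ag against Naive, the 3 with the lowest FDR in Ag+Costim against Ag, the 5 highest and 5 lowest log2 fold changes called in Ag+Costim against Naive, and core factors listed by name. Of the pathway lists at most 4 genes each were named, by lowest FDR in Ag+Costim against Naive. Ddit3 was left out of its list because its symbol stands for 2 entries. The genes, the lists and these rules were chosen with earlier results of these data known.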

Additional observations from a re-analysis of the deposited data

Results flagged for a closer look

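Among 25 measures in 3 groups of 5 libraries, 4 had a single library far from the other 4, with a gap to the nearest above 0.71 of the group's range (Dixon's criterion). Chance alone gives such a gap in about 1 in 20 groups. In the Ag group, Eif2s3y was 136.38 CPM in Ag 4 and 0 to 17.64 in the others. In the Naive group, Eif3a was 304.83 CPM in Naive 5 and 249.28 to 254.47 in the others. In the Ag+Costim group, Ag+Costim 4 had the highest Eif4e3, at 21.217 CPM beside 15.305 to 16.499, and the highest Eif4g1, at 323.76 CPM beside 248.66 to 268.70.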

How the results depend on the processing

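No log2 fold change of a named gene that was called in a comparison, or of Eif3a, Eif4e3, Eif4g1 and Eif4g2 in Ag+Costim against Ag, reversed under any alternative, and 386 such values kept their side of the threshold, 104 lost it and 12 gained it. Of 53 log2 fold changes of named genes that were not called, 15 had the other sign under at least 1 alternative, at an FDR of 0.474 or more by edgeR or DESeq2. In Ag against Naive these were Eif2s3x (0.05, down to -0.11), Eif2s3y (-0.76, up to 1.28), Eif3a (-0.11, up to 0.03), Eif3j2 (-0.04, up to 0.21), Eif4e (0.34, and -0.02 without Ag 5), Eif4e3 (-0.01, up to 0.21), Eif4g1 (-0.29, up to 0.01) and Eif4g2 (-0.13, up to 0.09). In Ag+Costim against Ag they were Eif2b2 (0.06, down to -0.04), Eif2s3y (-0.06, up to 1.69), Eif3h (-0.14, and 0.09 without a filter), Eif4e (0.22, and -0.19 without Ag 1, Ag 3 and Naive 5), Eif4ebp1 (-0.14, up to 0.12), Eif4ebp2 (-0.01, up to 0.22) and Eif4g3 (0.04, down to -0.10). In Ag against Naive the 4 members called became 0 with no filter on low counts, beside 0.425% of all genes called. They became 0 in a fit of only the 10 libraries of the comparison (5 with an unadjusted p under 0.05), beside 0.036%. With lane as a term 0 were called beside 0%, and with library totals taken over all genes 1 was called beside 5.61%. The count ranged from 0 to 9, beside 1.42% to 21.5%, when single libraries were left out. It was 17 beside 31.2% without both Ag 1 and Naive 5, and 25 beside 36.9% without Ag 1, Ag 3 and Naive 5. The median log2 fold change of 0.22 ranged from 0.07 to 0.32 without single libraries and was 0.49 without those 3. In Ag+Costim against Ag the 0 calls of edgeR stood beside 8 in DESeq2, where 14.6% of all genes were called. Without single libraries there were 0 to 15, beside 0% to 19.7% of all genes. The median of 0.30 ranged from 0.20 to 0.51 without single libraries. It was 0.56 without a filter, where the median over all genes went from -0.10 to -1.46. In Ag+Costim against Naive the 29 calls became 18 without a filter, beside 8.49% of all genes called, and 3 with lane as a term, beside 5.43%. Without single libraries they ranged from 13 to 35, beside 21.6% to 51.0% of all genes, with medians of 0.45 to 0.58. For transcript shares, no filter gave 1 call in each comparison in place of 0. Over all genes, edgeR called 1165, 6 and 7755 in the 3 comparisons and DESeq2 2778, 2533 and 9196. With library totals alone the median of all genes in Ag+Costim against Naive shifted by -0.15, the share of higher calls over all genes went from 47% to 37.2%, and 23 members rose and 2 fell. Naive and Ag libraries were in separate lanes, so group and lane cannot be told apart there. The cause of these changes was not tested beyond fewer samples in fits that left libraries out.

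Replicate numbers are shared between the groups, and deviations of same-numbered libraries correlated from -0.324 to 0.470. In Ag against Naive this was 0.42, 0.47 and 0.41 for numbers 1, 4 and 5. Replicates 3 and 4 were recorded as male in every group. Such correlations cannot decide whether the numbers pair the samples, and the labels do not state it. With the number as a replicate block, 3, 0 and 33 members were called in place of 4, 0 and 29, beside 9.56%, 0% and 45.1% of all genes. Eif5 in Ag against Naive then had an FDR of 0.0525 by edgeR. The medians were then 0.21, 0.37 and 0.52, and no transcript share of a member was called.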
